A study of Homo sapiens with 8 samples.

Results

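The 10 genes followed here belong to the NOTCH pathway and act at or near the cell surface: the receptors NOTCH1, NOTCH2 and NOTCH3, the ligands JAG1 and JAG2, the Fringe enzymes LFNG, MFNG and RFNG, and the proteases ADAM10 and ADAM17. They were taken by gene symbol from the table of counts, which lists 63677 genes. All 10 were among the 15646 genes expressed highly enough to be tested. JAG1 had a further row under another gene identifier with 0 counts in every library, and that row was not used. The RNA was that of Jurkat, a human cell line established from T-cell acute lymphoblastic leukaemia (T-ALL), cultured with tetracycline-free serum. Every group, the controls included, carried TAL1 fused to FKBP12, the tag through which the degrader dTAG-13 brings a protein to a ubiquitin ligase. The 4 groups received DMSO (the solvent), dTAG-13, GSI (which by usage stands for gamma-secretase inhibitor) or dTAG-13 with GSI, called the combination, for 24 hours. Each group had 2 libraries; the doses, and whether replicates were separate cultures, are not given in the labels, so a p-value here reflects no more than how far these libraries spread, which may be technical.

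NOTCH receptors are cut in 3 steps on their way to a signal. Furin cleaves them during transport, ADAM10 or ADAM17 sheds the outer part after a ligand on a neighbouring cell pulls on it, and gamma-secretase then frees the intracellular part, which enters the nucleus and activates genes together with RBPJ. Fringe enzymes add sugars to the O-fucose on the receptor's outer repeats and so change which ligands it answers to. In T-ALL, NOTCH1 is often activated by mutation, and NOTCH3 is known as one of the genes that NOTCH1 activates.

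The promoters of 4 genes whose transcripts moved with GSI are shown, since NOTCH3 and JAG1 fell and NOTCH1 and ADAM10 rose. Each sequence is 300 bases, 250 before and 50 after the gene's start, 5′ to 3′ on the gene's strand, from RefSeq (GRCh38.p14); 9 of the 10 genes had an entry there, and MFNG did not. NOTCH3 lies at chr19:15200946-15201245, JAG1 at chr20:10673950-10674249, NOTCH1 at chr9:136545999-136546298 and ADAM10 at chr15:58749658-58749957, all on the minus strand. Capitals mark matches on either strand to 3 motifs: TGGGAA (the core bound by RBPJ), CAGNTG (an E-box form bound by TAL1 with its E-protein partners) and AGATAA (bound by GATA factors); no matches overlapped.
NOTCH3: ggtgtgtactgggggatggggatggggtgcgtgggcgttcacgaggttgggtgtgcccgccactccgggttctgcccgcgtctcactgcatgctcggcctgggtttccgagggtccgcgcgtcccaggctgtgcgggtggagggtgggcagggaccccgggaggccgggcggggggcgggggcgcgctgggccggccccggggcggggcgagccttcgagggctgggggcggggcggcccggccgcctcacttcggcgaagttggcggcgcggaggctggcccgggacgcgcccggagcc
JAG1: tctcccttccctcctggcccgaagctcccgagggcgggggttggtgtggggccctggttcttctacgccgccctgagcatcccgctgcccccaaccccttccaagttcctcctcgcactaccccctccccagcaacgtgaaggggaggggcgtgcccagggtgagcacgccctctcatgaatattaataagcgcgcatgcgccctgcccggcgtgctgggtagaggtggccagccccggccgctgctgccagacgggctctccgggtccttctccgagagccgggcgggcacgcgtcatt
NOTCH1: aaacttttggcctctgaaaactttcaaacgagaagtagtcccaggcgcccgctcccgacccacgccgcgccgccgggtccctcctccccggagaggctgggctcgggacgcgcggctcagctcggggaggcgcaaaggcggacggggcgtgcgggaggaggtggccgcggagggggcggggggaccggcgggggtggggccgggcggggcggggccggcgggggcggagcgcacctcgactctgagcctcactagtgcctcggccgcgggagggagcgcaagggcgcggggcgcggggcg
ADAM10: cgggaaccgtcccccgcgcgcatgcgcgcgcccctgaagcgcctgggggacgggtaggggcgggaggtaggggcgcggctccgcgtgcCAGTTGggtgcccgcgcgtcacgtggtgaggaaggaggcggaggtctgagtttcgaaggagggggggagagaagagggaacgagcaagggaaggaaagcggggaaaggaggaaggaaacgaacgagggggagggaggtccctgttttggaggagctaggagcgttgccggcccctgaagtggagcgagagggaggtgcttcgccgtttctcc
Of these 4 windows, the only match was 1 CAGNTG in ADAM10, at position -162 from the start. Over all 35116 windows of this length in the table, 24.0% held TGGGAA, 49.9% held CAGNTG and 10.3% held AGATAA. Among the other members, LFNG had 1 TGGGAA and 1 CAGNTG in each of its 2 windows, and JAG2, RFNG and ADAM17 had 1 CAGNTG each. The windows were rich in G and C, from 56.0% in 1 of the LFNG windows to 79.7% in JAG2.

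Total counts ran from 17544319 to 22180009 per library. The first principal component (28.3% of the variance) set the 4 libraries with GSI apart from the other 4, and the second (16.3%) separated replicate 1 from replicate 2 within GSI (15.9 and -18.6), the combination (13.4 and -22.9) and dTAG-13 (8.99 and -7.19), with the opposite order within DMSO (0.956 and 9.31). T-lineage markers were present: of 14 markers, 13 reached at least 1 CPM (the standard read-count unit scaled to library size, here with TMM factors) and TRBC1 was at 0 in every library. The 14 included TAL1, the gene tagged in these cells, at 145 to 208 CPM. Myeloid markers summed to at most 1.01 CPM, with MPO and S100A8 at 0, and epithelial, stromal and endothelial markers to at most 4.10 CPM, with EPCAM, PECAM1 and CDH5 at 0. Of 10 B-lineage markers, 5 were under 1 CPM in every library and none was at 0; IGLL1 was the highest, and their summed level, 229.9 to 281 CPM in libraries that had no GSI, reached 326 to 479.7 CPM in those that had it. Their part in the results was not tested. Erythroid and megakaryocytic markers summed to 15.8 to 20.2 CPM, mostly EPOR, with HBB at 0. As in any bulk sample, fewer cells that express a gene and less RNA per cell cannot be told apart.

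With GSI, averaged over both dTAG-13 states (4 libraries against 4), NOTCH3, JAG1 and MFNG fell and NOTCH1 and ADAM10 rose. That is 5 of 10 members called by edgeR's quasi-likelihood test at an adjusted p below 0.05, against 6.94% of all genes tested (3.38% higher and 3.56% lower). The members' median log2 fold change was -0.19, and that of all genes was 0.01. Libraries with and without GSI did not overlap for 3 members that were higher (NOTCH1, JAG2, ADAM10; 7% of all genes) and 3 that were lower (NOTCH3, JAG1, MFNG; 8.22% of all genes). In the comparisons of 2 libraries against 2, fewer members passed. GSI against DMSO called 2 lower, NOTCH3 and MFNG (0.863% of all genes called lower, 1.74% in either direction). The combination against dTAG-13 called NOTCH3 lower and ADAM10 higher (0.569% and 0.639% of all genes, 1.21% together), and the combination against DMSO called NOTCH3 lower (0.767% lower, 1.31% together). The single and averaged comparisons share libraries, so they are not separate evidence.

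**Figure D1:**
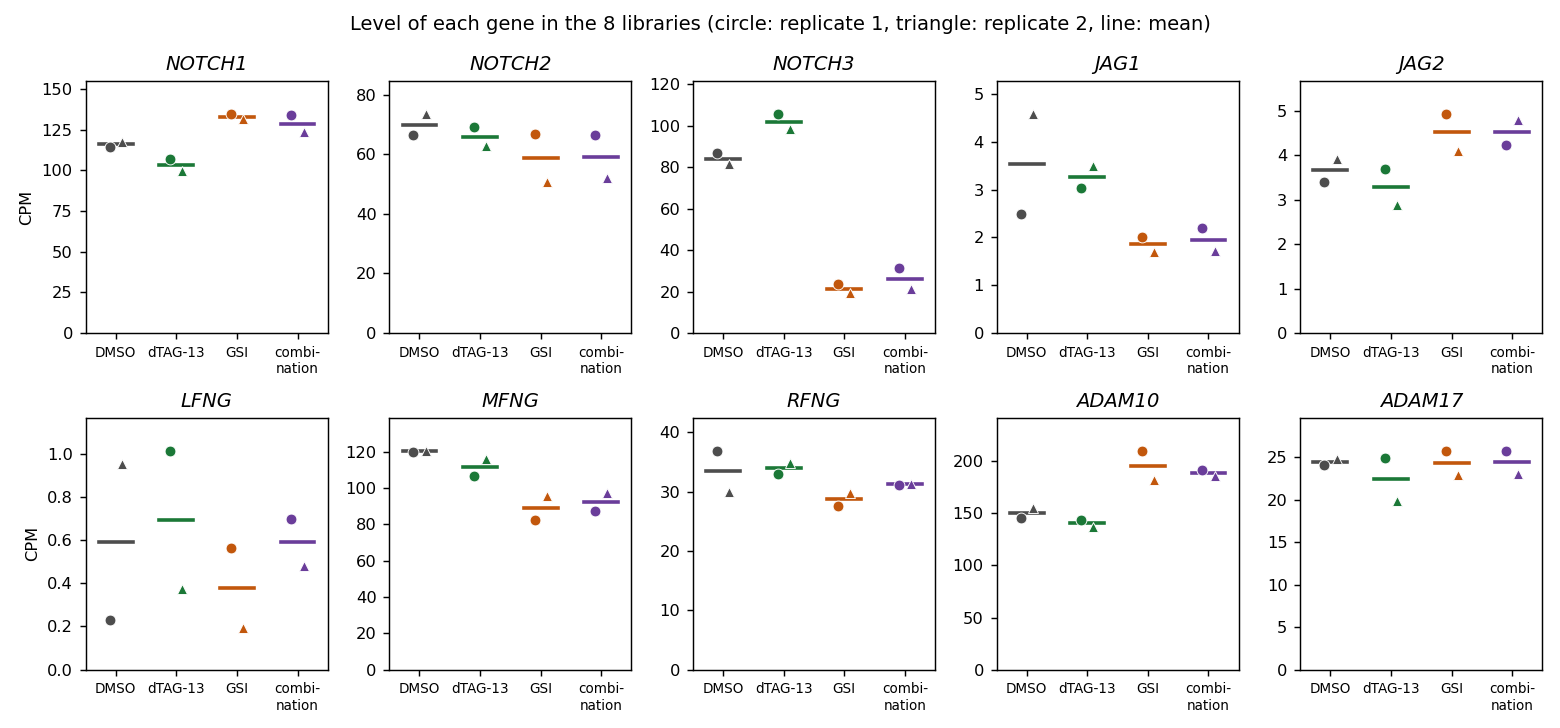
Level in CPM of each of the 10 genes in every library, with axes starting at 0; circles are replicate 1, triangles replicate 2 and lines the mean of the 2 libraries. NOTCH3 sits between 81.4 and 106 CPM without GSI and between 19.2 and 31.1 CPM with it, and ADAM10 moves the other way.

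NOTCH3 was the member that changed most. It stood at 87.0 and 81.4 CPM in the DMSO libraries, 106 and 98.3 CPM with dTAG-13, 23.7 and 19.2 CPM with GSI, and 31.1 and 21.05 CPM with the combination. All 4 libraries with GSI were far below all 4 without it. The log2 difference of GSI from DMSO was -1.97 (SE 0.15, adjusted p = 3.23e-05, edgeR), a level 3.92-fold lower. In cells that also received dTAG-13 the value was -1.97 as well (SE 0.15, adjusted p = 2.58e-05), and the combination against DMSO stood at -1.69 (SE 0.15, adjusted p = 9.51e-05). These calls held whichever compared library was left out, with averaged values from -2.12 to -1.84. Ranked by p among the 15646 genes, NOTCH3 was number 10 in GSI against DMSO and number 16 in the combination against DMSO.

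NOTCH1, the main oncogenic receptor of T-ALL, moved little and upward. Its levels were 114 and 117 CPM in DMSO, 107 and 99.5 CPM with dTAG-13, 135 and 131 CPM with GSI, and 134 and 124 CPM with the combination. The 4 libraries with GSI were all above the other 4. The averaged GSI effect was 0.26 (SE 0.06, adjusted p = 0.0189, edgeR), a level 1.196-fold higher. Neither single comparison passed: 0.20 (SE 0.08, adjusted p = 0.288) against DMSO and 0.32 (SE 0.08, adjusted p = 0.0915) for the combination against dTAG-13, the latter passing with low counts unfiltered (0.0487). The averaged call was lost without DMSO replicate 1 (adjusted p = 0.11), DMSO replicate 2 (0.0981), dTAG-13 replicate 2 (0.132) or combination replicate 1 (0.0587).

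NOTCH2 had no call. Its levels were 66.4 and 73.5 CPM in DMSO, 69.1 and 62.6 CPM with dTAG-13, 66.9 and 50.5 CPM with GSI, and 66.4 and 51.9 CPM with the combination. The low libraries were the second replicates of both groups with GSI, which also stood apart on the second principal component, while the first replicates lay among the controls. The averaged GSI effect was -0.20 (95% interval -0.42 to 0.01, adjusted p = 0.251, edgeR). NOTCH2 shares near-identical sequence with the NOTCH2NL genes, so its reads could be split between them; the listed NOTCH2NL row stood at 1.53 to 2.31 CPM.

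The receptor mix followed from these values. Per kilobase of exon, NOTCH3 made up 36.9% ± 1.86 of the 3 receptors' summed level with DMSO, 43.9% ± 0.142 with dTAG-13, 12.3% ± 0.983 with GSI and 14.7% ± 2.44 with the combination (mean ± SD, n = 2). NOTCH1 went the other way, from 46.0% ± 0.679 and 40.3% ± 0.0849 without GSI to 69.0% ± 3.43 and 66.5% ± 3.62 with it. The NOTCH2 share ranged only from 15.7% to 20.4% over the 8 libraries. The summed level of the receptors was 23.8 to 25.7 CPM per kb without GSI and 17.2 to 20.2 CPM per kb with it. These shares are descriptions of the levels above and were not tested.

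**Figure D2:**
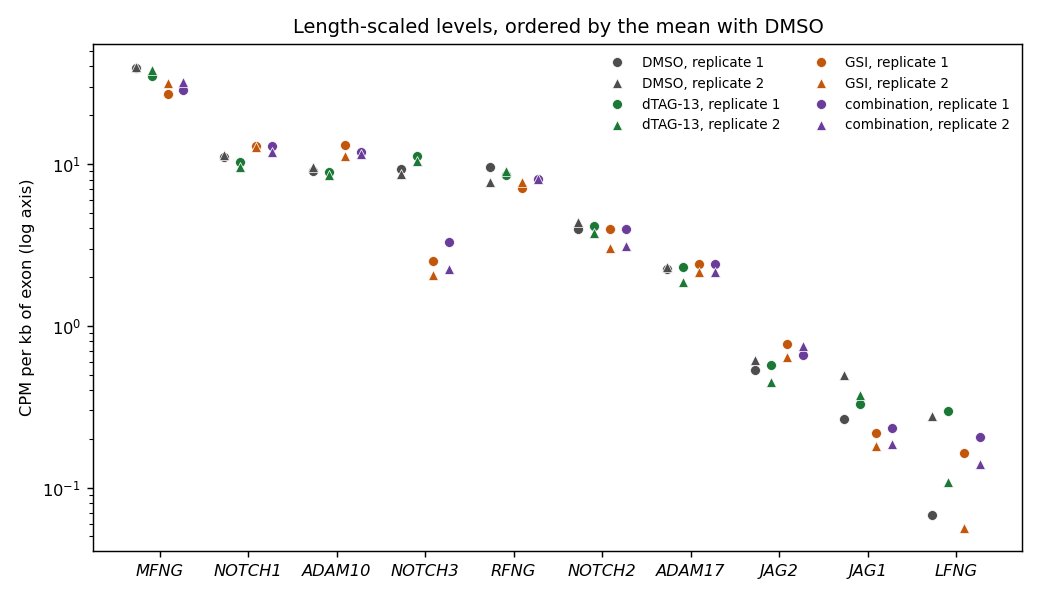
Level of each gene per kilobase of exon (log axis) in every library, in order of the mean with DMSO, coloured by group. MFNG leads, JAG2, JAG1 and LFNG lie lowest, and NOTCH3 drops from 8.96 ± 0.419 with DMSO to 2.29 ± 0.335 with GSI.

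Per kilobase of exon, the order with DMSO was MFNG, NOTCH1, ADAM10, NOTCH3, RFNG, NOTCH2, ADAM17, JAG2, JAG1 and LFNG. MFNG stood at 39.5 ± 0.222 CPM per kb, NOTCH1 at 11.2 ± 0.204, ADAM10 at 9.32 ± 0.424, NOTCH3 at 8.96 ± 0.419 and RFNG at 8.65 ± 1.27 (mean ± SD, n = 2). The ranges of ADAM10 and NOTCH3, of NOTCH3 and RFNG, and of JAG1 and LFNG overlapped, so those neighbours were not told apart. NOTCH2 was at 4.16 ± 0.301, ADAM17 at 2.27 ± 0.0464, JAG2 at 0.572 ± 0.0549, JAG1 at 0.380 ± 0.160 and LFNG at 0.173 ± 0.149 CPM per kb. With GSI, NOTCH3 went from the fourth place to the sixth, at 2.29 ± 0.335, where its range overlapped that of ADAM17. Lengths are those of all exons in GENCODE release 29, which is not the annotation of the counts. They ran from 3042 bases for MFNG to 16807 for NOTCH2. The order between genes and the receptor shares depend on these lengths, and other lengths were not tried.

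The ligands were low, at 5 CPM or less in every library. JAG1, a membrane-bound ligand presented by a neighbouring cell, had 2.48 and 4.59 CPM in DMSO, 3.04 and 3.496 CPM with dTAG-13, 2.02 and 1.69 CPM with GSI, and 2.19 and 1.73 CPM with the combination, from 35 to 101 counts. Every library with GSI was below every library without it, but the DMSO libraries differed from each other by more than the DMSO library with less JAG1 differed from those with GSI. The averaged GSI effect was -0.85 (SE 0.20, adjusted p = 0.0277, edgeR), a level 1.80-fold lower. GSI against DMSO alone gave -0.96 (SE 0.29, adjusted p = 0.141) and the combination against dTAG-13 -0.74 (SE 0.29, adjusted p = 0.305). The combination against DMSO gave -0.88 (SE 0.29, adjusted p = 0.207). With low counts unfiltered, only the comparisons of GSI and of the combination against DMSO passed (0.0124 and 0.0352), and these share the DMSO libraries. In the authors' deposited tables (DESeq2) neither of these passed for JAG1 (adjusted p = 0.459 and 0.633). The averaged call was lost without DMSO replicate 2 (-0.58, adjusted p = 0.173), dTAG-13 replicate 1 (0.0548), dTAG-13 replicate 2 (0.111) or combination replicate 2 (0.0524).

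JAG2, the other Jagged ligand, had 3.41 and 3.90 CPM in DMSO, 3.69 and 2.89 CPM with dTAG-13, 4.93 and 4.10 CPM with GSI, and 4.24 and 4.79 CPM with the combination. The libraries with GSI were all above the others, in the opposite direction to JAG1. The averaged difference was 0.38 (95% interval 0.08 to 0.68) and did not pass over all genes (adjusted p = 0.128, edgeR).

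Among the Fringe enzymes, MFNG was the most abundant and the member that fell. It had 119.7 and 121 CPM in DMSO, 107 and 116 CPM with dTAG-13, 82.7 and 95.6 CPM with GSI, and 87.2 and 97.3 CPM with the combination. The lowest library without GSI was still above the highest with it. GSI against DMSO gave -0.43 (SE 0.09, adjusted p = 0.0409, edgeR), a level 1.35-fold lower, and the averaged effect was -0.35 (SE 0.07, adjusted p = 0.00809). The combination against DMSO stood at -0.38 (SE 0.09, adjusted p = 0.0845) and against dTAG-13 at -0.27 (SE 0.09, adjusted p = 0.241). The former passed with DESeq2 (0.0451) and with low counts unfiltered (0.00776). In the authors' deposited table MFNG was at -0.44 (adjusted p = 0.0222) with GSI, and in the authors' deposited table of the combination at -0.39 (adjusted p = 0.0410).

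The MFNG call against DMSO was lost without DMSO replicate 1 (adjusted p = 0.278), DMSO replicate 2 (0.364) or GSI replicate 1 (0.21), and when edgeR was fitted to those 4 libraries alone (0.0525). The averaged call was lost without DMSO replicate 1 (0.0501), DMSO replicate 2 (0.0597) or dTAG-13 replicate 2 (0.0561). Its direction was negative in each of these fits.

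RFNG had 36.9 and 30.0 CPM in DMSO, 33.0 and 34.8 CPM with dTAG-13, 27.6 and 29.8 CPM with GSI, and 31.1 and 31.3 CPM with the combination. Both GSI libraries lay below both DMSO libraries (20.9% of all genes did so), and both combination libraries lay below both dTAG-13 libraries (21.3%) and above both GSI libraries (11.8%). Over all 8 libraries those with and without GSI overlapped, since 1 DMSO library lay below both combination libraries. The averaged GSI effect was -0.17 (95% interval -0.34 to 0.00164, adjusted p = 0.232, edgeR). RFNG overlaps GPS1 on the opposite strand, which stood at 138 to 175 CPM, and the strand setting of the counting is not given in the sources used here.

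LFNG, which glycosylates NOTCH receptors in developing T cells, was close to undetected, with 4 and 21 counts with DMSO, 22 and 8 with dTAG-13, 12 and 4 with GSI, and 15 and 10 with the combination. Replicates of 1 group differed as widely as the groups did. The 95% interval of the averaged GSI effect ran from -1.52 to 0.58. A change by the size seen for NOTCH1, MFNG or ADAM10 was therefore not resolved for LFNG.

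ADAM10, the main ligand-dependent NOTCH sheddase, rose. It had 146 and 155 CPM in DMSO, 144 and 137 CPM with dTAG-13, 210.1 and 182 CPM with GSI, and 192 and 186 CPM with the combination. All libraries with GSI were above all without it. The averaged effect was 0.40 (SE 0.06, adjusted p = 0.00224, edgeR), a level 1.32-fold higher, and it passed whichever of the 8 libraries was left out, at 0.35 to 0.45. The combination against dTAG-13 stood at 0.43 (SE 0.09, adjusted p = 0.0374) and GSI against DMSO at 0.38 (SE 0.09, adjusted p = 0.0538).

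The call of ADAM10 in the combination against dTAG-13 was lost without dTAG-13 replicate 1 (adjusted p = 0.202), dTAG-13 replicate 2 (0.446), combination replicate 1 (0.158) or combination replicate 2 (0.0538), and when edgeR was fitted to those 4 libraries alone (0.0673). GSI against DMSO passed with DESeq2 (0.0267), with low counts unfiltered (0.00481) and without GSI replicate 2 (0.0245), and the combination against DMSO passed with low counts unfiltered (0.0274). In the authors' deposited tables (DESeq2) ADAM10 did not pass, at 0.37 (adjusted p = 0.0776) with GSI and 0.32 (0.0903) with the combination. An antisense gene within ADAM10, AC018904.1, stood at 2.31 to 3.95 CPM.

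ADAM17, which sheds NOTCH and also TNF, showed little difference. It had 24.1 and 24.8 CPM in DMSO, 25.0 and 19.9 CPM with dTAG-13, 25.8 and 23.0 CPM with GSI, and 25.7 and 23.1 CPM with the combination. The groups overlapped in every comparison. GSI against DMSO was at -0.00 with a 95% interval of -0.27 to 0.27. ADAM17 overlaps IAH1 on the opposite strand, at 23.9 to 30.0 CPM.

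**Figure D3:**
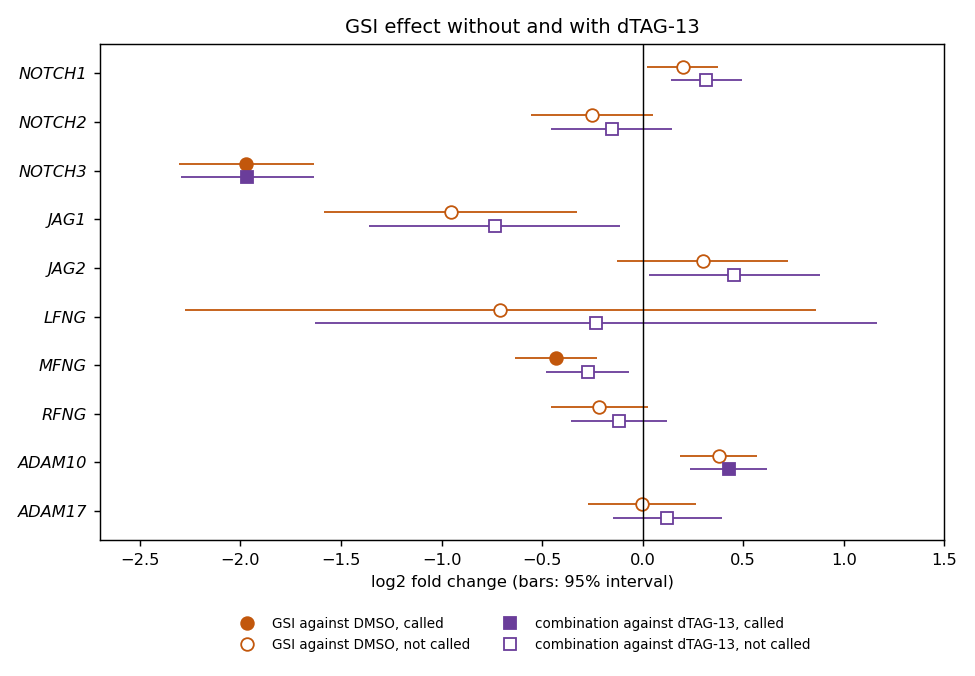
Log2 fold change of GSI with its 95% interval for each gene, against DMSO (circles) and in cells that also received dTAG-13 (squares); filled symbols passed edgeR's test over all genes. NOTCH3 stands at -1.97 in both, and the intervals of the other genes overlap between the 2 backgrounds.

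Whether the GSI response differed with dTAG-13 was tested as the interaction, how far the combination departed from both single effects added together. None of the 10 members passed edgeR's test (0% of all genes called), 0 had an unadjusted p below 0.05 (1.66% of all genes) and DESeq2 called 0. The estimates of all 10 were above 0 (median 0.12, against -0.01 for all genes, of which 51.8% were negative). This shared direction was not tested, and the members come from the same libraries. NOTCH3 departed by 0.00 with a 95% interval of -0.45 to 0.46. For NOTCH1 the interval was -0.13 to 0.37, for MFNG -0.13 to 0.45 and for ADAM10 -0.22 to 0.32. With 2 libraries a group, departures within those intervals were not resolved.

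The comparisons of dTAG-13 ask whether these transcripts respond to the degrader of TAL1. No member passed edgeR's test against DMSO, where 0.0192% of all genes were called; 0 had an unadjusted p below 0.05 (3.84% of all genes) and DESeq2 called 0. The combination against GSI also called 0 members, with 0 at an unadjusted p below 0.05 and 0 by DESeq2 (0.0575% of all genes called and 4.14% at the unadjusted p). Averaged over both GSI states, edgeR called 0 members, 1 had an unadjusted p below 0.05 and DESeq2 called 0 (0.499% of all genes called and 6.08% at the unadjusted p).

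That member was NOTCH3. It was higher in both dTAG-13 libraries than in both DMSO libraries, by 0.28 (SE 0.14, adjusted p = 0.9996, edgeR), and by 0.28 (SE 0.16, adjusted p = 0.999) in the combination against GSI, where the libraries overlapped. The averaged difference was 0.28 (95% interval 0.05 to 0.51, adjusted p = 0.665, edgeR), and it passed only without the filter on low counts (0.29, adjusted p = 0.0254). In the authors' deposited table NOTCH3 stood at 0.28 with an adjusted p of 0.436. Besides NOTCH3, which was higher, 3 members did not overlap between dTAG-13 and DMSO and were lower, NOTCH1 at -0.17, MFNG at -0.11 and ADAM10 at -0.10; among all genes, 17.7% were higher and 17.6% lower without overlap. The intervals reached -0.34 for NOTCH1, -0.31 for MFNG and -0.29 for ADAM10.

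**Figure D4:**
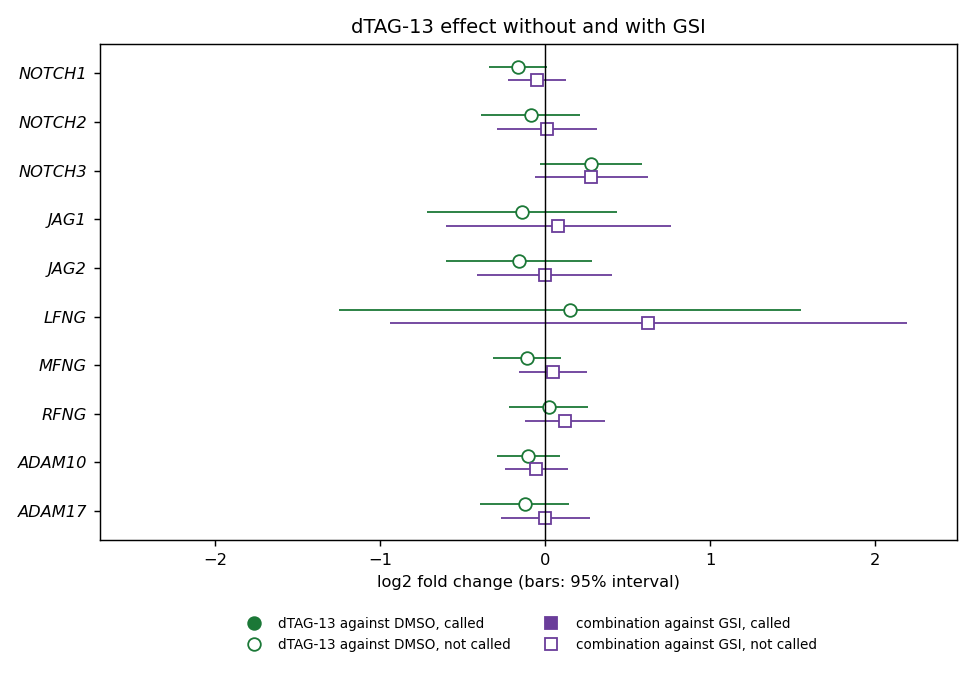
Log2 fold change of dTAG-13 with its 95% interval for each gene, against DMSO (circles) and in cells that also received GSI (squares); all symbols are open because none passed edgeR's test. NOTCH3 stands at 0.28 in both, and LFNG has the widest intervals.

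The rest of the pathway was read from lists of its parts. As a readout of the drug, 11 NOTCH targets were listed, with earlier results of these data known, and 9 were tested. The list is therefore no independent test of the drug. With GSI averaged over both dTAG-13 states, 8 fell and 0 rose (median -1.28, against 0.01 for all genes). Among all genes tested, 3.56% were called lower and 3.38% higher. DTX1, a NOTCH-induced ubiquitin ligase, stood at -2.72, and the repressors HES4 and HES1 at -2.56 and -2.28 (adjusted p of 8.52e-10, 2.43e-07 and 1.04e-06). These falls were larger than that of NOTCH3 in the same comparison, -1.97. With dTAG-13 against DMSO, edgeR called 0 of the 9 targets (0.0192% of all genes) and DESeq2 called 2 (24 of 15646 genes). DTX1 was 1 of these (-0.52, DESeq2 adjusted p = 0.00849). By edgeR, DTX1 passed with low counts unfiltered (adjusted p = 0.000334), with the replicate block (0.0311) and with those 4 libraries fitted alone (0.0003). It did not pass whichever compared library was left out, at -0.60 to -0.43. The median of the 9 targets in that comparison was -0.02. With dTAG-13 averaged over both GSI states, edgeR called 1 target higher and 0 lower (0.499% of all genes in either direction), and the median was 0.07. Levels of PTCRA moved opposite to DTX1, from 4.10 ± 0.241 CPM with DMSO to 9.37 ± 1.19 with dTAG-13. They were 1.36 ± 0.127 CPM with GSI and 2.33 ± 0.719 with the combination (mean ± SD, n = 2).

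Other receptors and ligands were scarce. NOTCH4 stood at 0.507 to 1.04 CPM, DLL3 at 3.44 to 5.57 and DLK2 at 1.97 to 3.94, and these 3 of 6 listed genes were tested. DLL1 and DLL4 reached at most 0.512 and 0.233 CPM, and DLK1 was at 0. None was called by edgeR in any of the 8 comparisons, with 2 of 24 tests at an unadjusted p below 0.05 and 0 calls by DESeq2. The 8 comparisons share libraries, so the tests in such a count, here and in the lists below, are not separate evidence. No share of all genes at the unadjusted p over the 8 comparisons together is given, so none of these counts can be read as an excess.

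Receptor maturation and sugar transfer, which includes FURIN, the O-fucosyltransferase POFUT1 and the xylosyltransferases GXYLT1, GXYLT2 and XXYLT1, had 8 of 8 genes tested. None was called in 64 tests by edgeR, 6 had an unadjusted p below 0.05 and DESeq2 made 0 calls. Of the gamma-secretase subunits 5 of 6 were tested, PSEN2 being at most 0.173 CPM. None was called in 40 tests, 8 had an unadjusted p below 0.05 and DESeq2 made 0 calls; the averaged GSI value of NCSTN was 0.17 (SE 0.06, adjusted p = 0.087).

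Around the sheddases, TIMP2, a metalloprotease inhibitor, rose and RHBDF2, an iRhom that carries ADAM17 to the surface, fell with GSI. Over the list of 13 partners and inhibitors, 1 rose, 1 fell and 11 did not pass in the averaged comparison (median 0.17), where 3.38% of all genes rose and 3.56% fell. The other inhibitors listed, TIMP1, TIMP3 and RECK, were among those that did not pass (adjusted p = 0.173, 0.672 and 0.0809, edgeR). Whether TIMP2 acts on ADAM10 or ADAM17 was not tested. TIMP2 went from 75.5 ± 5.41 CPM with DMSO to 93.4 ± 5.70 with GSI and 106.6 ± 14.7 with the combination (averaged effect 0.32, SE 0.08, adjusted p = 0.0273, edgeR). RHBDF2 went from 6.37 ± 0.144 to 4.59 ± 0.214 and 4.02 ± 0.418 CPM (-0.49, SE 0.12, adjusted p = 0.0257). Both averaged calls were lost when any of 5 libraries was left out, for TIMP2 either DMSO library, GSI replicate 1, combination replicate 1 or dTAG-13 replicate 2 (adjusted p 0.0638 to 0.161) and for RHBDF2 either DMSO library, either dTAG-13 library or combination replicate 1 (0.0571 to 0.104). TIMP2 also passed in the combination against DMSO (0.50, SE 0.11, adjusted p = 0.0489), but not with DESeq2 size factors (0.0509) and not without either DMSO library or combination replicate 1 (0.219 to 0.517). Of the tetraspanins that escort ADAM10, TSPAN5, TSPAN10, TSPAN14, TSPAN15, TSPAN17 and TSPAN33, none was called. Of 7 other membrane ADAM proteases, 4 were tested and none was called by edgeR in 32 tests, with 6 at an unadjusted p below 0.05 and 0 calls by DESeq2.

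Ubiquitination and endocytosis genes had 16 of 17 tested, with 1 higher and 1 lower in the averaged GSI comparison (median 0.02), against 6.94% of all genes called in either direction. NEURL1, a ubiquitin ligase of the Neuralized family that acts on ligands in flies, fell (-0.37, SE 0.09, adjusted p = 0.0308, edgeR) and its relative NEURL1B rose (0.63, SE 0.17, adjusted p = 0.0422) from 2.18 ± 0.262 CPM with DMSO. The NEURL1 call was lost when any library but GSI replicate 2 or combination replicate 2 was left out (adjusted p 0.067 to 0.143), and that of NEURL1B was lost with DESeq2 (0.0794) and when any library but combination replicate 2 was left out (0.0524 to 0.191). FBXW7, which marks the intracellular part of NOTCH for destruction, ranged from 31.3 to 41.1 CPM with no call. In the nuclear complex, 15 of 16 genes were tested, 1 rose and 1 fell in the same comparison (median -0.00), read against the same 6.94%. The acetyltransferase KAT2A fell (-0.38, SE 0.06, adjusted p = 0.00236) from 144.4 ± 0.246 CPM with DMSO to 107.8 ± 10.4 with GSI, and its paralog KAT2B rose (0.48, SE 0.10, adjusted p = 0.0126) from 17.4 ± 2.49 to 25.2 ± 1.63 CPM. The averaged call of KAT2A held whichever library was left out, and that of KAT2B was lost without DMSO replicate 1 (0.0806) or dTAG-13 replicate 2 (0.073). KAT2A also passed in GSI against DMSO (-0.42, adjusted p = 0.0240) and in the combination against DMSO (-0.39, adjusted p = 0.0474); the first was lost when its 4 libraries were fitted alone (0.0522) and without either DMSO library or GSI replicate 1 (0.151 to 0.287) and the second without any 1 of its 4 libraries (0.0813 to 0.428). RBPJ ranged from 72.6 to 108.8 CPM and MAML1 from 91.5 to 103.8 CPM, neither called.

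Genes with the most similar pattern were sought among 10204 genes of at least 5 CPM, by Pearson correlation of log2 CPM over the 8 libraries. The libraries fall into those with and without GSI, so a high value here mainly says that a gene splits the same way. NOTCH3 was nearest to MYO7B, a myosin (0.990), RHOU (0.986) and IGF1R, the receptor of insulin-like growth factor 1 (0.985). ADAM10 was nearest to CELF2, an RNA-binding protein (0.988), ZMIZ1 (0.985) and the T-lineage transcription factor RUNX1 (0.985). MFNG was nearest to DPH2 (0.991), RRAS2 (0.990) and NOL6 (0.990), NOTCH1 to IL17RA, TSPAN2 and DZIP3 (0.978 to 0.980), and JAG1 to TUBE1, FYTTD1 and KIAA1024 (0.951 to 0.959).

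**Figure D5:**
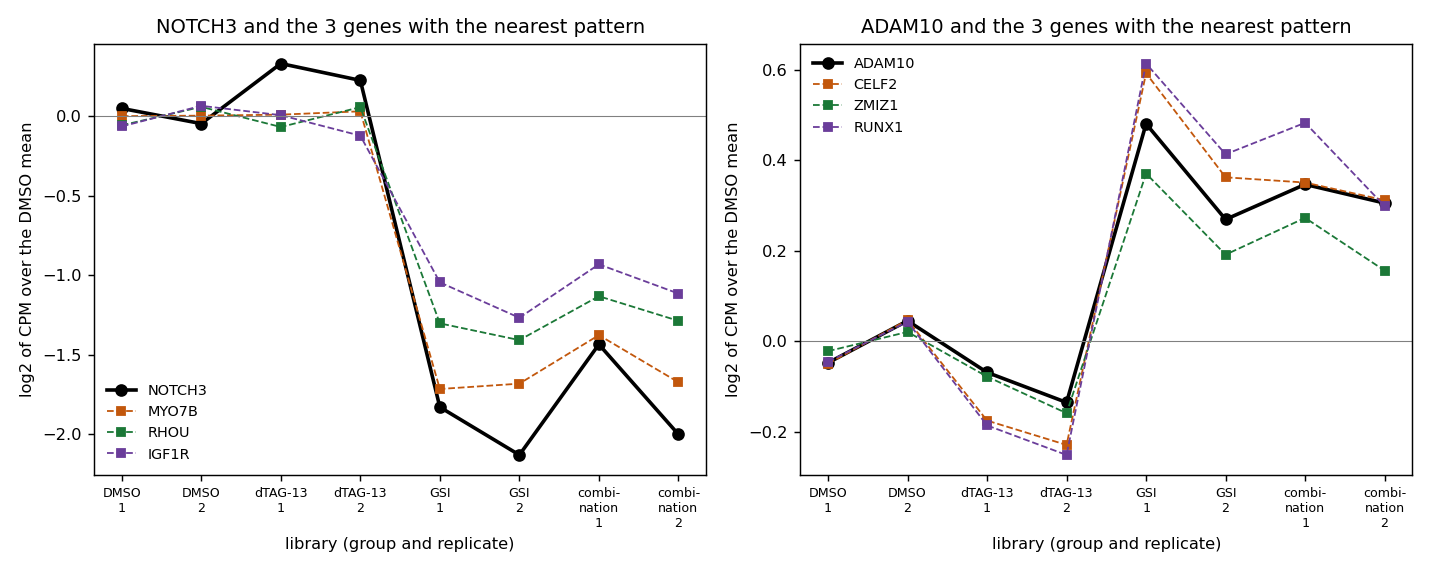
Log2 of CPM over the mean of the DMSO libraries for NOTCH3 (left) and ADAM10 (right) with the 3 genes nearest in pattern, 1 point per library. The 4 libraries with GSI lie below the others for NOTCH3 and its 3 neighbours, and above the others for ADAM10 and its 3 neighbours.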

How the data were processed

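Strand-specific paired-end RNA libraries of 8 samples were read from the table of counts per gene that the authors deposited, with 2 libraries in each of 4 groups. STAR (2.5.2a), the counter featureCounts, the build hg19 and, for the authors' tests, DESeq2 (1.12.4) are named in the submitters' processing notes. Annotation and strand setting: not given in the sources used here. The 3 deposited comparison tables hold the authors' log2 fold changes and errors, a score (their ratio), p-values and a signal (the mean normalised count, per the file headers).

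Genes passing filterByExpr (15646) were scaled by TMM. In R 4.3.3, edgeR 4.0.16 fitted the 8 libraries together as a robust quasi-likelihood model of 4 groups with 4 residual degrees of freedom. The 2-sided tests of 8 comparisons used a threshold of 0.05 on p-values adjusted over the genes tested (Benjamini-Hochberg). Each SE is the log2 fold change divided by the square root of F, and intervals are 95%. The procedure was tested on simulated data. The alternatives were DESeq2 1.42.0, its size factors, no filter, a replicate block, the compared libraries alone and leaving out each library. A further block with the DMSO numbers crossed was chosen after seeing the data. The members, gene lists and rule for named genes (every member, up to 3 called genes of a list in each direction, and the 3 nearest patterns of each called member) were chosen with earlier results of these data known.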

Additional observations from a re-analysis of the deposited data

How the results depend on the processing

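Of 890 values of single members under the alternatives, 774 kept their direction and their side of the threshold, 20 lost a call, 25 gained one, 71 uncalled values changed sign and 0 called values did. These values include the block with the DMSO numbers crossed, which was chosen after seeing the data and gave 12 of the 25 gained calls. Members called with GSI against DMSO numbered 2 (272 of 15646 genes called), but 4 with low counts unfiltered (660 of 30406), 3 with DESeq2 (333), 3 with the replicate block (559) and 1 when those libraries were fitted alone (246 of 15030). The combination against DMSO had 1 (205), but 4 unfiltered (532 of 30406), 2 with DESeq2 (252) and 2 with the replicate block (413). The combination against dTAG-13 had 2 (189), but 3 unfiltered (563 of 30406), 3 with the replicate block (476) and 1 when fitted alone (96 of 15097). The averaged GSI effect had 5 members with DESeq2, unfiltered and with the block as well, with 1086 genes called, 1815 unfiltered and 1822 with the block; dTAG-13 averaged over both GSI states had 0, but 1 unfiltered. Leaving out 1 library gave 1 to 3 members for GSI against DMSO, 1 for the combination against dTAG-13 and 2 to 5 for the averaged GSI effect. In all 4 comparisons with and without GSI, NOTCH3 was called in every alternative run. The cause of these changes was not tested.

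The labels do not say that a replicate number marks a shared culture. Deviations from the group means correlated between same-numbered libraries at 0.503 to 0.579 among dTAG-13, GSI and the combination, but at -0.368 to -0.134 with DMSO. With the numbers as a block, the calls gained were ADAM10 with GSI against DMSO (adjusted p = 0.0184), MFNG in the combination against DMSO (0.0159) and NOTCH1 in the combination against dTAG-13 (0.0390), all by edgeR. Crossing the DMSO numbers in the block, chosen after seeing the data, gave 6 members for GSI against DMSO, 5 for the combination against DMSO, 4 for the combination against dTAG-13 and 7 for the averaged GSI effect. The calls over all 15646 genes rose with them, to 1581, 1191, 1434 and 3221. LFNG and the ligands had low counts, and the part of depth in their spread was not tested.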
